A study of Arabidopsis thaliana with 24 samples.

Results

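RNA abundance of 7 genes was followed in detached leaf blades of Arabidopsis thaliana: 5 enzymes of the early flavonoid pathway, CHS (AT5G13930), CHI (AT3G55120), F3H (AT3G51240), F3'H (AT5G07990) and FLS1 (AT5G08640), and 2 MYB transcription factors of flavonol synthesis, MYB12 (AT2G47460) and MYB111 (AT5G49330). They were taken by locus from the 37686 loci of the deposited tables, and all 7 were present. The first pair of rosette leaves of seedlings aged 12 d was detached and cultured on B5 medium without sucrose in continuous light, after growth on medium with sucrose in long days. The mutant was coi1-2, which lacks normal function of COI1, the F-box receptor of the hormone jasmonate, and its reference was the wild type Col-0 (WT). Whole explants, with all their cell types, were frozen at 8 times, namely at the cut itself (t0), 10 and 30 min later, and 1, 2, 4, 8 or 12 h later. At each time 2 coi1 libraries and 1 WT library had a sample label, 24 in all. The labels do not say whether the coi1 pairs came from separate plants or cultures. All values are TPM (transcript abundances per library), which sum to the same total in each library and are scaled to transcript length, so the read depth is unknown and a level is a share of the RNA. Time after detachment ran together with time of day, loss of sucrose and continuous light, and these cannot be told apart.

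Flavonoids are made from phenylalanine. Chalcone synthase (CHS) and chalcone isomerase (CHI) build the flavanone skeleton, flavanone 3-hydroxylase (F3H) turns it into a dihydroflavonol, and flavonoid 3'-hydroxylase (F3'H) adds a further hydroxyl to the B ring, which separates quercetin and cyanidin from kaempferol. At the dihydroflavonol the pathway forks: flavonol synthase (FLS1) makes flavonols, the ultraviolet screens of the leaf epidermis, while dihydroflavonol 4-reductase (DFR) opens the route to anthocyanins. MYB12 and MYB111 activate the early genes and FLS1, whereas DFR and the later enzymes depend on a complex of a MYB such as PAP1, a bHLH protein such as TT8 and the WD40 protein TTG1, whose MYB and bHLH parts the jasmonate repressors (JAZ proteins) can bind.

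Several libraries stood apart. Over all genes, the WT library labelled 2 h was nearest to the WT library at 12 h (r = 0.986) and next to the coi1 libraries at 12 h (r = 0.977 and 0.975). It is called here the WT library labelled 2 h, and results that rest on it are given also without it where such a value exists. The coi1 libraries at 30 min correlated at r = 0.885 with each other. Replicate 1 was nearest to coi1 t0 replicate 1 (r = 0.957), and replicate 2 to coi1 1 h replicate 1 (r = 0.940). In turn, coi1 t0 replicate 1 was nearer to the WT library at 10 min (r = 0.965) than to its own pair (r = 0.947). The root mean square of the log2 difference within the 30 min pair was 1.04, against 0.691 for the t0 pair and 0.319 to 0.501 for the other pairs. COI1 itself, whose coi1-2 lesion need not change the amount of its RNA and so checks no label, lay between 13.1 and 23.3 TPM in coi1 and between 8.65 and 25.9 TPM in WT. A library held 17019 to 17840 genes with 1 TPM or more. Markers of the labelled leaf tissue were present: all 4 of mesophyll, all 5 of epidermis, all 3 of guard cells and all 3 of vascular tissue. None of 3 markers of root and shoot meristems reached 1 TPM. The summed epidermis markers ranged from 921 to 2081 TPM in coi1 and from 889 to 2036 TPM in WT, and at 4 to 12 h from 1451 to 1991 TPM in coi1 and from 1479 to 2036 TPM in WT. LTP1 made up most of each sum, and single markers moved otherwise. PDF1 had 28.4 and 29.1 TPM in coi1 at t0 and 6.08 and 7.96 TPM at 12 h. ATML1 had 66.3 and 65.0 TPM in coi1 at 1 h, against 18.9 TPM in WT, and 32.5 and 34.9 TPM at 12 h, against 36.2 TPM in WT. In whole explants fewer cells of a type and less RNA per cell cannot be told apart.

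In coi1 leaves genes of the flavonol route rose between 1 and 12 h after detachment. CHS, F3H and FLS1 reached means of 533 to 1889 TPM by 12 h, CHI and MYB111 climbed with them, and the 12 h means of these 5 genes were 0.644 to 1.29 times the WT value of that time. F3'H did not follow: it stayed below 4 TPM in every coi1 library, against 48.9 TPM at 8 h and 130 TPM at 12 h in WT. DFR, at the head of the anthocyanin branch, was likewise far below WT in coi1 at 8 and 12 h. The plot of TPM by library shows all 8 profiles.

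**Figure D1:**
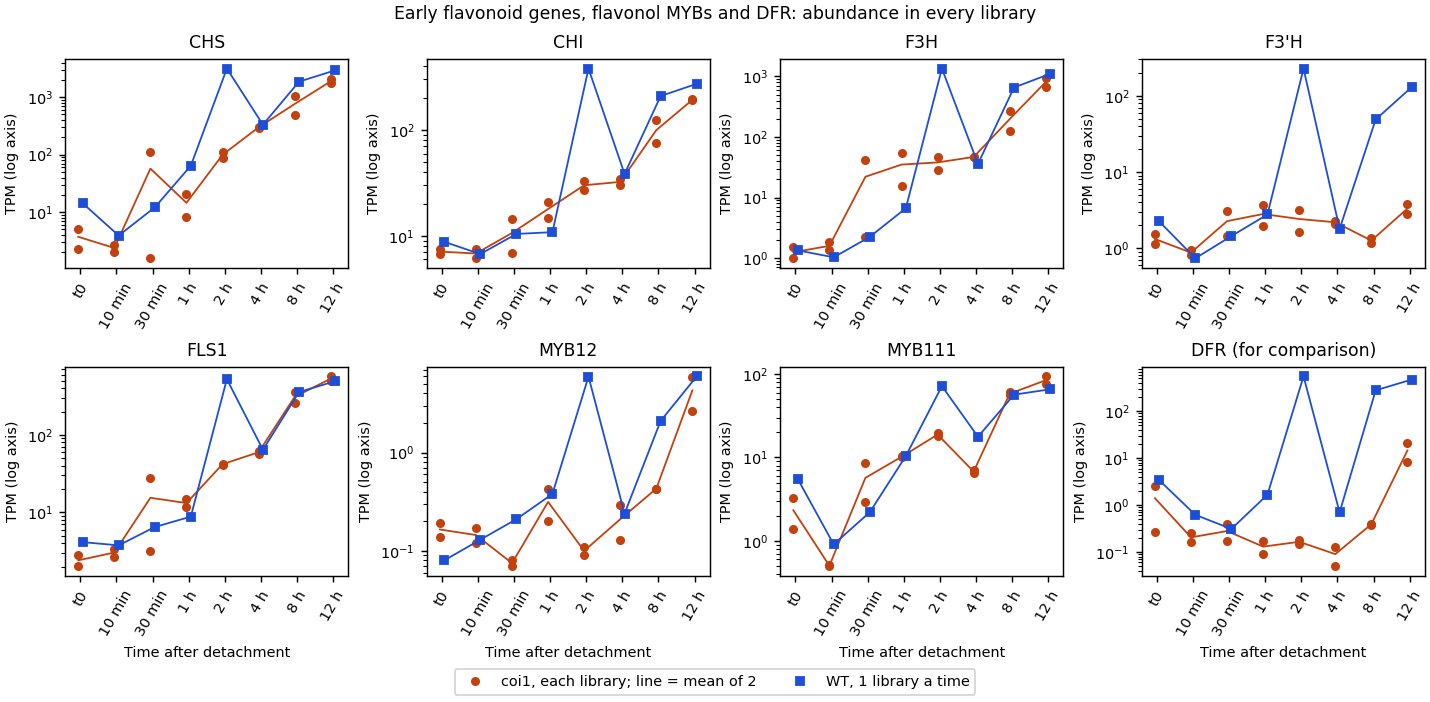
TPM (log axis, each panel with its own range) of the 7 genes and of DFR at the 8 times in coi1 (circles, each library, with a line through the mean of the 2) and WT (squares, 1 library a time). CHS, CHI, F3H, FLS1 and MYB111 climb in both genotypes, F3'H stays at 3.84 TPM or less in coi1, and the WT library labelled 2 h stands far above its neighbours in every panel.

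CHS, which commits phenylpropanoids to flavonoids, was the most abundant of the 7 genes at 12 h. In coi1 it had 5.17 and 2.27 TPM at t0, 2.03 and 2.72 TPM at 10 min, 1.57 and 113 TPM at 30 min, 20.8 and 8.22 TPM at 1 h, 113 and 85.9 TPM at 2 h, 304 and 295 TPM at 4 h, 489.6 and 1035 TPM at 8 h, and 1731 and 2046 TPM at 12 h. In WT CHS had 14.3, 3.91, 12.1 and 64.1 TPM from t0 to 1 h, 3147 TPM in the library labelled 2 h, and 332, 1864 and 2931 TPM at 4, 8 and 12 h. From 1 h on, both coi1 libraries lay above both t0 libraries, and at 4 h the genotypes were within 40 TPM of each other. The means of the coi1 pairs were lowest at 10 min, then in the order t0, 1 h, 30 min and 2 h, and after that in order of time, with the 30 min libraries spanning the t0, 10 min and 1 h values.

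CHI, the next enzyme, had the narrowest range of the 5 enzymes apart from F3'H. In coi1 it had 6.71 and 7.53 TPM at t0, 6.15 and 7.51 TPM at 10 min, 6.93 and 14.4 TPM at 30 min, 21.1 and 14.9 TPM at 1 h, 33.3 and 26.9 TPM at 2 h, 34.4 and 30.4 TPM at 4 h, 75.5 and 124 TPM at 8 h, and 191 and 194 TPM at 12 h. The WT libraries held 8.81, 6.75, 10.4 and 10.9 TPM from t0 to 1 h, 380.1 TPM in the library labelled 2 h, and 38.5, 209 and 273 TPM at 4, 8 and 12 h. The coi1 pairs at 2 and 4 h overlapped, and those at 8 and 12 h did not overlap with them or with each other.

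F3H makes the dihydroflavonol at which the pathway forks. In coi1 it had 1.51 and 0.99 TPM at t0, 1.83 and 1.35 TPM at 10 min, 2.24 and 41.9 TPM at 30 min, 54.4 and 15.6 TPM at 1 h, 47.6 and 28.5 TPM at 2 h, 47.4 and 46.2 TPM at 4 h, 127 and 268 TPM at 8 h, and 681 and 941 TPM at 12 h. In WT F3H had 1.34, 1.03, 2.24 and 6.66 TPM from t0 to 1 h, 1350.2 TPM in the library labelled 2 h, and 36.0, 657 and 1106 TPM at 4, 8 and 12 h. The coi1 pairs at 1, 2 and 4 h overlapped, a plateau that ended by 8 h.

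FLS1, the branch enzyme of the flavonols, had nearly the same level in both genotypes from 4 h on. In coi1 it had 2.03 and 2.79 TPM at t0, 3.41 and 2.67 TPM at 10 min, 3.20 and 27.7 TPM at 30 min, 14.8 and 11.6 TPM at 1 h, 41.5 and 42.3 TPM at 2 h, 62.8 and 56.7 TPM at 4 h, 259 and 361 TPM at 8 h, and 496 and 569.8 TPM at 12 h. WT leaves had 4.14, 3.76, 6.48 and 8.83 TPM from t0 to 1 h, 524 TPM in the library labelled 2 h, and 64.3, 357 and 494 TPM at 4, 8 and 12 h. At 8 h the WT value lay between the coi1 values, and at 4 and 12 h it lay within 3 TPM of one of them.

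F3'H was the exception among the enzymes. In coi1 it had 1.52 and 1.13 TPM at t0, 0.82 and 0.94 TPM at 10 min, 1.44 and 3.11 TPM at 30 min, 3.70 and 1.94 TPM at 1 h, 3.21 and 1.64 TPM at 2 h, 2.29 and 2.11 TPM at 4 h, 1.16 and 1.37 TPM at 8 h, and 2.81 and 3.84 TPM at 12 h. In WT F3'H had 2.25, 0.74, 1.45 and 2.78 TPM from t0 to 1 h, 227 TPM in the library labelled 2 h, and 1.80, 48.9 and 130.1 TPM at 4, 8 and 12 h. The coi1 libraries spanned 0.82 to 3.84 TPM, and WT lay inside or just below that span at t0, 10 min, 30 min, 1 h and 4 h and far above it at 8 and 12 h.

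MYB111, the more abundant of the flavonol MYBs, moved with the enzymes but had low values at 10 min and again at 4 h. In coi1 it had 3.26 and 1.41 TPM at t0, 0.50 and 0.51 TPM at 10 min, 2.92 and 8.50 TPM at 30 min, 10.3 and 10.1 TPM at 1 h, 19.4 and 18.2 TPM at 2 h, 7.06 and 6.50 TPM at 4 h, 56.1 and 60.1 TPM at 8 h, and 74.9 and 93.7 TPM at 12 h. The WT values of MYB111 were 5.56, 0.91, 2.21 and 10.4 TPM from t0 to 1 h, 71.6 TPM in the library labelled 2 h, and 17.7, 56.6 and 65.5 TPM at 4, 8 and 12 h. MYB111 and FLS1 were the genes of the 7 whose WT value at 12 h lay below both coi1 values. MYB12 was near the limit of the tables until late: the 14 coi1 libraries before 12 h held 0.07 to 0.43 TPM, and the 12 h pair held 2.67 and 5.92 TPM. In WT MYB12 had 0.08 to 0.38 TPM from t0 to 1 h, 5.93 TPM in the library labelled 2 h, then 0.24 TPM at 4 h and 5.97 TPM at 12 h. At 8 h both coi1 libraries had 0.43 TPM and WT had more, while at 12 h the higher coi1 library was within 0.05 TPM of WT.

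The promoters of CHS, F3H, FLS1 and F3'H are shown because the first 3 genes rose in coi1 and F3'H was not called. Each is the 250 bases before the annotated start of the gene, on the strand of the gene, from the RefSeq assembly TAIR10.1: chr5:4488226-4488475 (plus strand) for CHS, chr3:19024942-19025191 (plus strand) for F3H, chr5:2803583-2803832 (plus strand) for FLS1 and chr5:2560078-2560327 (plus strand) for F3'H. Capitals mark the core ACGT of bZIP sites such as those of HY5, the E-box CANNTG of bHLH proteins, and the MYB word ACCNANN with A or T as its first N, A or C as its next and C or T as its last (MRE), all searched on both strands. An ACGT inside CACGTG counts under both of the first motifs.
CHS: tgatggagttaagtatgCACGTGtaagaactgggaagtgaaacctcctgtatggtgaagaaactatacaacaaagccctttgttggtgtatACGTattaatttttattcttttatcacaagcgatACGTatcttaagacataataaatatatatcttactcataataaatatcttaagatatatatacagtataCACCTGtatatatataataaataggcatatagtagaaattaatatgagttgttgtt
F3H: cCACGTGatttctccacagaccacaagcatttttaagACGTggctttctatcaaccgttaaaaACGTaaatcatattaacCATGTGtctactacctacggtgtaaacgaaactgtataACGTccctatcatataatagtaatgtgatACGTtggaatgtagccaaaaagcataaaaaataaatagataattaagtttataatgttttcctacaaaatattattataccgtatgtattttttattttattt
FLS1: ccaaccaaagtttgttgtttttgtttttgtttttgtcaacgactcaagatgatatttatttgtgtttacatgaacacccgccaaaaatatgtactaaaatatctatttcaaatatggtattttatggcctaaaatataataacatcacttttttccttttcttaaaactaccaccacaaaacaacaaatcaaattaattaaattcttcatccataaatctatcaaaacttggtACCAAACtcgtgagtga
F3'H: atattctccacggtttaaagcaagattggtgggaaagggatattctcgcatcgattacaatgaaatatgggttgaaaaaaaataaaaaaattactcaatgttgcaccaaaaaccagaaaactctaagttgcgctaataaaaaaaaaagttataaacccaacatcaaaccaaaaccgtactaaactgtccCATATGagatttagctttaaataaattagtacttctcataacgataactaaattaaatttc

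ACGT was found 3 times in the CHS window and 5 times in the F3H window, and in neither the FLS1 nor the F3'H window. The E-box was found 2 times each for CHS and F3H, 1 time for F3'H and not for FLS1, whose window held the 1 MRE of these 4. Of the other genes, CHI held 2 E-boxes and neither of the other motifs, MYB12 held 2 ACGT and 2 E-boxes, MYB111 held 1 ACGT, 1 E-box and 2 MREs, and DFR held 5 ACGT, 1 E-box and 1 MRE. Among 27438 windows of the same length, 44.1% held ACGT, 55.3% the E-box, 29.4% an MRE and 7.75% all 3. The F3H window overlaps AT3G51238, a long noncoding RNA gene in the annotation. A match is a run of letters and not a bound site, and no motif was found in all of the windows of the genes that climbed in coi1.

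Against t0, the coi1 time course was tested with limma on log2(TPM + 1), a scale that understates the change of low genes, with p-values adjusted over all 19323 genes tested and a call at an adjusted p below 0.05. At 10 and 30 min none of the 7 genes was called higher (0.362% and 2.76% of all genes were). At 1 h 4 of 7 rose, where 10.7% of all genes did: CHI, F3H, FLS1 and MYB111, by 1.21 to 3.76. CHS gave 1.66 ± 1.29 at 1 h without a call, and without the 30 min libraries it was called there (1.66 ± 0.46, adjusted p = 0.0156). At 2 h CHS was called with the other 4 (13.2% of all genes higher). The same 5 genes were called at 4 h (7.39%) and at 8 h (10.9%). Some calls at 1, 2 and 4 h were lost when 1 library of the time or of t0 was left out, which leaves 1 library in that group. At 4 h the changes moved little without either 4 h library. CHS lay at 6.04 and 6.08, beside 6.06 with both, and F3H at 4.40 and 4.44, beside 4.42. At 1 h F3H moved more, to 2.89 without 1 h replicate 1, beside 3.76. At 12 h 6 of 7 rose, where 15.5% of all genes did, with a median change of 4.73 over the 7 genes beside 0.08 over all genes tested. MYB12, the sixth, passed the filter on low values only through its 12 h pair and so had to differ.

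At 12 h CHS was higher by 8.71 ± 1.29 on the log2(TPM + 1) scale (SE, 2 libraries a time, adjusted p = 0.000999), a mean of 1889 TPM at 12 h against 3.72 TPM at t0, or 508-fold. F3H rose by 8.49 ± 0.97 (adjusted p = 0.00019), 649-fold in TPM. FLS1 rose by 7.30 ± 0.64 (adjusted p = 3.49e-05), 221-fold in TPM. CHI and MYB111 rose by 4.58 ± 0.31 and 4.73 ± 0.36 (adjusted p = 8.6e-06 and 1.39e-05), 27.1-fold and 36.1-fold in TPM. F3'H gave 0.89 ± 0.31 (adjusted p = 0.0635), 3.32 TPM at 12 h against 1.32 TPM at t0. Of the 12 h changes of the 7 genes, that of F3'H was the one that crossed the threshold when the 30 min libraries were left out (adjusted p = 0.0272; range 0.0272 to 0.312 over 11 alternatives).

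The later changes were tested between neighbouring times, and the sizes of these steps were not compared with each other. From 4 to 8 h CHI, FLS1 and MYB111 rose by 1.55 ± 0.31, 2.34 ± 0.64 and 2.92 ± 0.36 (adjusted p = 0.0131, 0.0452 and 0.00138; 7.98% of all genes rose), 3 of 7. FLS1 lost this call after rescaling by median-of-ratios factors (2.11, adjusted p = 0.105), and 1 of the 3 calls was left without either 4 h library or without 8 h replicate 2. From 8 to 12 h 1 of the 7 was called higher (0.109% of all genes were), MYB12 at 1.82 ± 0.25 (adjusted p = 0.0257), whose filter rested on the 12 h pair and so fixed the direction. MYB12 kept its 1.82 but lost the call without either 8 h library and in a fit of the 4 libraries alone (adjusted p = 0.0507 to 0.195), and without a 12 h library it was not tested. CHS and F3H doubled or more in mean TPM over the same step, 1889 against 762 TPM and 811 against 198 TPM. They gave 1.40 ± 1.29 and 2.11 ± 0.97, without a call.

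At 30 min the coi1 libraries were split. Replicate 2 held 113 TPM of CHS, 41.9 TPM of F3H and 27.7 TPM of FLS1, against 1.57, 2.24 and 3.20 TPM in replicate 1, which lay within or near the t0 values. With replicate 1 left out, the 30 min changes from t0 were 4.66 for CHS, 4.26 for F3H, 3.08 for FLS1, 1.57 for MYB111 and 0.93 for CHI. With replicate 2 left out, those of the same genes lay between -0.81 and 0.54. A lone 30 min library has no spread of its own, so no call is read from these fits. Of the 12 light and repressor regulators 7 were higher in replicate 2 and 5 lower. HYH, a bZIP partner of HY5, had 174 TPM in replicate 2 and 6.51 TPM in replicate 1, HY5 had 17.5 and 0.93 TPM, and RUP2, which damps ultraviolet-B signalling, had 33.6 and 0.87 TPM, while BBX22, a B-box protein of light signalling, had 8.88 TPM in replicate 2 and 34.1 TPM in replicate 1 and MYB4 had 10.8 and 15.4 TPM. Their part in the split was not tested. Without this pair the 12 h change of CHS was the same 8.71, with an SE of 0.46 in place of 1.29.

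Between the genotypes at single times, each lone WT library was assumed to vary like the coi1 pairs. At 8 h 1 of the 7 genes was lower in coi1 (0.618% of all genes were), and at 12 h again 1 (0.440%): F3'H both times. F3'H differed by -4.46 ± 0.37 (SE, adjusted p = 0.000131) at 8 h, 1.26 TPM in coi1 against 48.9 TPM in WT, and by -4.93 ± 0.37 (95% interval -5.76 to -4.10, adjusted p = 6.91e-05) at 12 h, 3.32 TPM in coi1 against 130.1 TPM in WT. The change from t0 itself differed between the genotypes, by -3.98 ± 0.53 at 8 h (adjusted p = 0.00946; 0.233% of all genes lower) and by -4.44 ± 0.53 at 12 h (adjusted p = 0.00519; 0.192% lower). Both 12 h coi1 libraries and both 8 h coi1 libraries lay below their WT library by at least 30-fold. With a pseudocount of 0.1 the differences in change were -4.44 and -4.53 but missed the threshold (adjusted p = 0.0715 and 0.0716).

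For the other 6 genes no late difference was called. At 12 h FLS1 differed by 0.11 (95% interval -1.65 to 1.87), MYB111 by 0.35 (-0.63 to 1.33), CHI by -0.50 (-1.36 to 0.36) and MYB12 by -0.47 (-1.12 to 0.18). The intervals of F3H (-0.47, -3.12 to 2.19) and CHS (-0.64, -4.18 to 2.90) were too wide to place either gene at 12 h. That of FLS1 was also wide, so its levels are not shown to be equal. Over 4, 8 and 12 h together CHS was at -0.72 (-1.38 to -0.07, adjusted p = 0.235) and CHI at -0.62 (-1.07 to -0.17, adjusted p = 0.163). Neither was called, and the intervals of F3H, FLS1, MYB12 and MYB111 in that fit held 0. At 8 h CHS, CHI, F3H and MYB12 were below WT in both coi1 libraries, by -1.39, -1.10, -1.83 and -1.12, without a call. At 4 h MYB111 gave the value farthest from 0 among the 7 genes, -1.27 (7.06 and 6.50 TPM in coi1 against 17.7 TPM in WT, adjusted p = 0.343), and CHS, CHI and FLS1, also below WT in both coi1 libraries, gave -0.15, -0.24 and -0.11. Without the WT library labelled 2 h and the 30 min coi1 pair, MYB111 at 4 h was called (adjusted p = 0.0376).

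**Figure D2:**
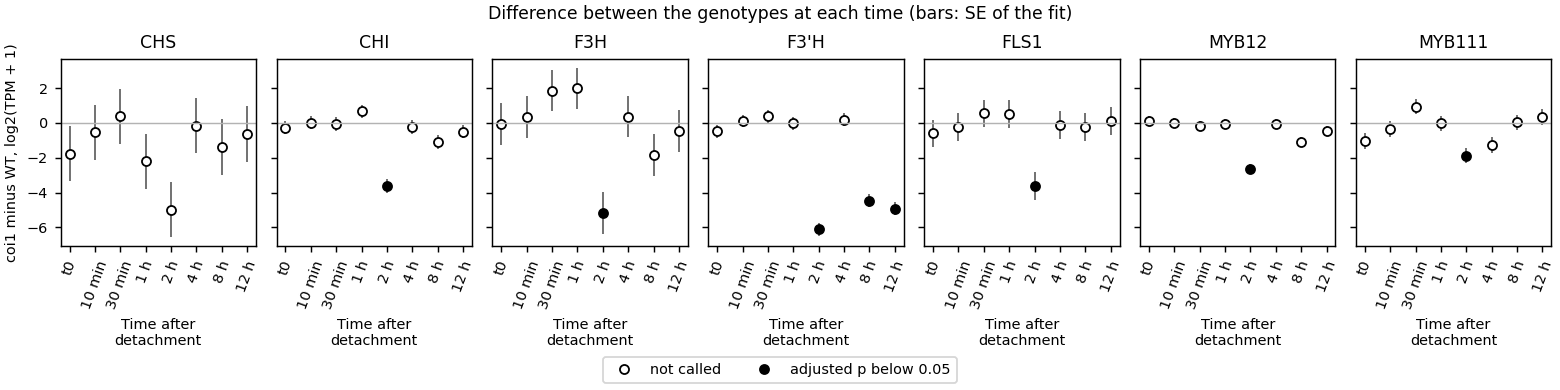
Difference coi1 minus WT in log2(TPM + 1) at each of the 8 times for the 7 genes, with the SE of the fit as bars; filled points had an adjusted p below 0.05. F3'H is at -4.46 at 8 h and -4.93 at 12 h, where the other 6 genes lie between -1.83 and 0.35, and 6 genes are called at 2 h, where the WT library labelled 2 h stood apart.

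At 2 h 6 of 7 genes were lower in coi1 (12.9% of all genes were): CHI, F3H, F3'H, FLS1, MYB12 and MYB111, by -1.87 to -6.10, while CHS gave -4.98 ± 1.59 (adjusted p = 0.0541). All of these rest on the WT library labelled 2 h, which resembled the 12 h libraries, and none of them has a value without it. Averaged over all 8 times, none of the 7 genes was called lower in coi1 (8.67% of all genes were), with F3'H at -1.92 ± 0.62 (adjusted p = 0.0517) and CHS at -1.41 ± 0.57 (adjusted p = 0.109). F3'H was called when coi1 30 min replicate 2 or the WT library at 10 min, 30 min or 4 h was left out (-2.24 to -2.03, adjusted p = 0.0375 to 0.0465), and CHS when coi1 30 min replicate 2 was, also over t0 to 2 h alone. Without the WT library labelled 2 h and the 30 min coi1 pair, CHS was called at -1.12 ± 0.27 (adjusted p = 0.0273) and F3'H was not (-1.60, adjusted p = 0.126). Over 4, 8 and 12 h together F3'H was at -3.07 (adjusted p = 0.119; 1.71% of all genes lower). With 4 h left out it was at -4.70 ± 0.16. That fit kept the times already seen to differ, so no call is read from it. At t0 to 2 h together none of the 6 genes tested was called lower in coi1 (6.46% of all genes were; MYB12 did not pass the filter), and none of the 7 for the change in difference between the early and late times (0.0962%). In WT alone, a spline over the 8 times called 0 of the 7 and 0.00% of 18906 genes, of which 3458 had an unadjusted p below 0.05. Without the library labelled 2 h the same test called 5 of the 7 and 801 of all genes.

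Over the 16 group means F3'H correlated at r = 0.959 with DFR and at r = 0.683 with FLS1, values that share libraries and carry no p. Over the 15 group means without the WT library labelled 2 h they were 0.947 and 0.627. DFR had 8.37 and 20.8 TPM in coi1 at 12 h, against 475 TPM in WT, and 0.40 and 0.38 TPM in coi1 at 8 h, against 279.7 TPM in WT. Within coi1 alone the order was turned round, with r = 0.444 for DFR and 0.475 for FLS1 over 8 times. DFR rose in coi1 at 12 h (2.76 ± 0.44, adjusted p = 0.00164; it reached 1 TPM in 3 coi1 libraries only) while F3'H gave 0.89 without a call, and the difference between the genes was not tested. At 12 h 5 of the 6 late anthocyanin enzymes tested were lower in coi1 (0.440% of all genes) and at 8 h all 6 were (0.618%), of a list of 7. Their change from t0 was lower in coi1 in 5 of 6 at 8 h (0.233% of all genes) and in 1 of 6 (5MAT) at 12 h (0.192%). Of TT8, the bHLH partner of the anthocyanin MYBs, coi1 had 2.03 and 3.33 TPM at 12 h, against 17.2 TPM in WT (-2.33 ± 0.22, adjusted p = 0.000369).

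The ratio of DFR to FLS1, log2((DFR + 1)/(FLS1 + 1)) in TPM, puts both sides of the fork in 1 value. It was -5.73 and -4.71 in the coi1 libraries at 12 h, against -0.05 in WT, and -7.54 and -8.03 in coi1 at 8 h, against -0.35 in WT. At 4 h the genotypes were close, at -5.82 and -5.78 in coi1 and -5.26 in WT, but DFR was below 1 TPM in each of these libraries. Without the added 1, DFR was 0.207% and 0.0882% of FLS1 in coi1 and 1.09% in WT at that time. The coi1 mean was below WT at 8 of 8 times, by -2.68 on average (SD 2.84, n = 8 times, exact two-sided sign-flip test p = 0.00781, the smallest it can give). With coi1 replicate 1 alone it was below WT at 6 of 8 times (-2.46, exact p = 0.0781), and without 2 h at 7 of 7 (-2.30, exact p = 0.0156, again the smallest possible). Before 1 h the size of the difference was 0.59 or less. The test takes the times as its units, each with 1 WT library, so its p does not measure the spread between WT libraries. DFR reached 1 TPM in 3 of 16 coi1 libraries and in 5 of 8 WT libraries. In the rest the ratio, with 1 added to each value, follows FLS1 for the most part.

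**Figure D3:**
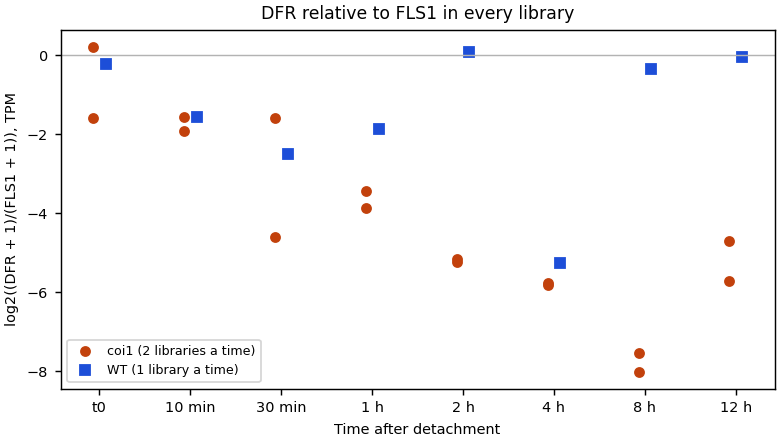
DFR relative to FLS1, as log2((DFR + 1)/(FLS1 + 1)) in TPM, in each coi1 library (circles, 2 a time) and each WT library (squares, 1 a time) at the 8 times. The genotypes are close at 4 h, where DFR was below 1 TPM in both. At 8 and 12 h coi1 lies between -8.03 and -4.71 while WT lies at -0.35 and -0.05.

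The rest of the pathway was read from 7 lists of 56 genes. Some of the entry enzymes that supply the pathway rose with the early genes. In coi1 at 12 h 5 of 9 were called higher, where 15.5% of all genes were, and none lower (median 1.07). Those called included 4CL3, the 4-coumarate:CoA ligase of flavonoid synthesis, by 5.89 ± 0.63. PAL1 and PAL2, the phenylalanine ammonia-lyases, rose by 4.58 ± 0.52 and 4.09 ± 0.42, and C4H, cinnamate 4-hydroxylase, by 3.59 ± 0.41. PAL3, PAL4, 4CL2 and 4CL5 stayed near their t0 values, with PAL4 at 2.67 and 3.52 TPM at 12 h against 4.16 and 3.87 TPM at t0. Of 7 other early genes 2 passed the filter and both rose: CHIL, a chalcone isomerase-like protein that aids CHS, by 7.30 ± 0.83, and MYB11, the third flavonol MYB, by 3.34 ± 0.18. MYB11 reached 1 TPM in coi1 at 8 and 12 h alone and so passed the filter only through the times at which it was high. CHIL reached 751 TPM in coi1 at 12 h, against 871 TPM in WT, and the close relatives FLS2 to FLS6 did not reach 1 TPM in any coi1 library. Of 8 genes that decorate flavonols 6 rose, beside the same 15.5% (median 2.92). The UDP-glycosyltransferase gene AT1G06000 rose by 6.17 ± 0.37, RHM1, which makes UDP-rhamnose, by 5.27 ± 0.29, and the flavonol glycosyltransferases UGT78D1 and UGT78D2 by 4.16 ± 0.46 and 3.91 ± 0.52. None of the 9 entry, 3 other early or 8 decoration genes tested between the genotypes was called at 8 or 12 h alone. Over all times AT1G06000, UGT78D1 and FLS3 were lower in coi1 (-1.92 ± 0.29, -0.87 ± 0.23 and -0.53 ± 0.14, adjusted p = 0.000585, 0.0239 and 0.0193), where 8.67% of all genes were. FLS3 passed the filter only through WT libraries (1.19 to 2.30 TPM from t0 to 1 h, at most 0.89 TPM in coi1), which fixed its direction. Over 4 to 12 h UGT78D3 was higher in coi1 (0.88 ± 0.13, adjusted p = 0.0157), where 0.759% of all genes were.

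In the anthocyanin branch all 6 late enzymes tested also rose in coi1 by 12 h (median 3.22; 15.5% of all genes), though to lower levels than in WT. TT19, which carries anthocyanins to the vacuole, rose by 5.64 ± 0.43 to a mean of 79.4 TPM in coi1, against 358 TPM in WT. LDOX, the next enzyme after DFR, rose by 3.71 ± 0.37 to 27.6 TPM in coi1, against 488 TPM in WT, and the anthocyanin glycosyltransferase UGT79B1 by 3.68 ± 0.26 to 15.2 TPM in coi1, against 132 TPM in WT. Of 5 anthocyanin regulators tested, of a list of 8, 4 rose: PAP2 and PAP1, the MYBs, by 7.87 ± 0.18 and 7.43 ± 0.32, TT8 by 1.80 ± 0.19, and the bHLH gene EGL3. PAP2 averaged 259 TPM in coi1 at 12 h and 173 TPM in WT, and PAP1 209 TPM in coi1 and 384 TPM in WT, neither of them a called difference at that time. PAP1 was called lower in coi1 over 4 to 12 h (-1.97 ± 0.35, adjusted p = 0.0318) and over all times (-1.68 ± 0.32, adjusted p = 0.00391). Among the genes of this branch DFR, LDOX, UGT79B1, 5MAT, PAP2, TT8 and EGL3 reached 1 TPM in at most 4 coi1 libraries, so their passing of the filter rested on few, late libraries.

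**Figure D4:**
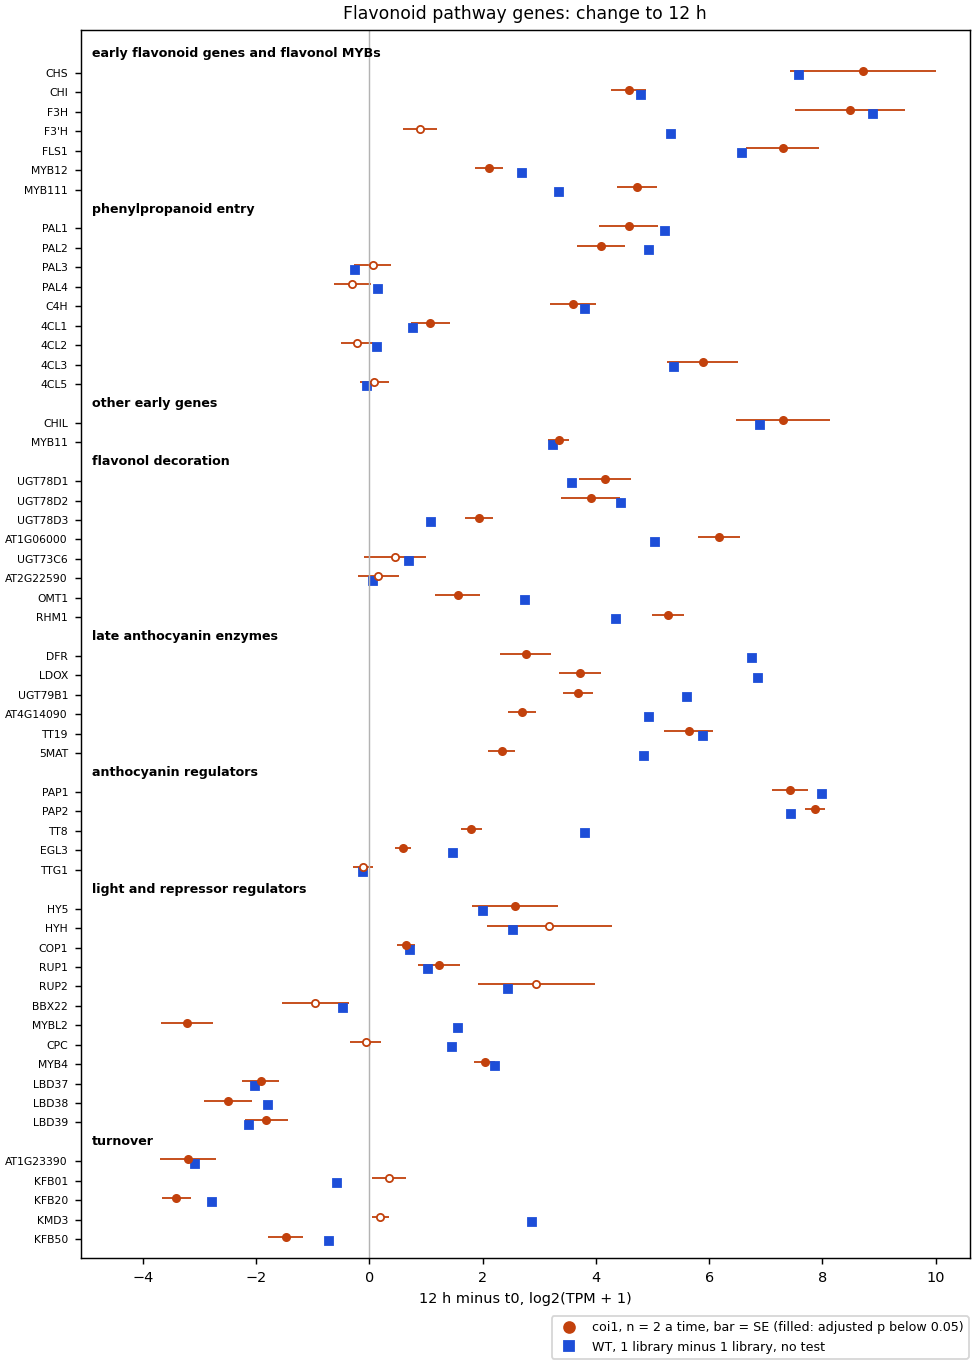
Change from t0 to 12 h in log2(TPM + 1) for the 7 genes and the other tested pathway genes by list, in coi1 (circles with SE, 2 libraries a time, filled where the adjusted p was below 0.05) and WT (squares, 1 library minus 1 library, without a test). In coi1 F3'H changed by 0.89 and FLS1 by 7.30, and for 5MAT, the late enzyme whose change differed between the genotypes by test, the coi1 circle lies left of the WT square.

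Of 12 light and repressor regulators 4 rose and 4 fell at 12 h in coi1 (15.5% of all genes rose and 6.13% fell). HY5, the bZIP activator of light-responsive genes, rose by 2.57 ± 0.75 and MYB4, a MYB repressor, by 2.03 ± 0.18, while MYBL2, a repressor of the anthocyanin complex, fell by 3.22 on the log2 scale and LBD38, a nitrogen-linked repressor of anthocyanin genes, by 2.50. MYBL2 had 1.12 TPM in coi1 at 12 h, against 13.5 TPM in WT, with no call between the genotypes at that time, and over t0 to 2 h it was higher in coi1 (2.20 ± 0.50, adjusted p = 0.0258). Of 5 Kelch F-box genes 3 fell (median -1.47): KFB20 by 3.41, AT1G23390 by 3.21 and KFB50 by 1.47 on the log2 scale. KFB20 and KFB50 mark phenylalanine ammonia-lyase for breakdown. KMD3, of the same group, was lower in coi1 at 12 h than in WT (-2.85 ± 0.16, adjusted p = 1.0e-05), at 0.31 and 0.00 TPM in coi1 against 7.23 TPM in WT.

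Over the 16 group means, the mean profile of the 5 enzymes was matched against 13115 genes. The 10 most alike were CHIL (r = 0.985), 4CL3 (0.982), CLPB3 (0.976), AT2G21340 (0.975), UGT84A2 (0.974), RHM1 (0.972), NIT4 (0.972), AT5G42720 (0.972), PAP1 (0.970) and UGT78D2 (0.969). Of these, 5 belong to the pathway lists, and 8 were among the 10 without the WT library labelled 2 h. Among the 7 genes themselves, F3H correlated at r = 0.983 with CHI and at r = 0.981 with FLS1, and F3'H and MYB111 were the least alike (r = 0.661). Without the WT library labelled 2 h these were 0.981, 0.979 and 0.614. The groups share time and libraries, and the values are descriptions.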

How the data were processed

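Total RNA of whole leaf explants was sequenced, 24 libraries in 16 groups of genotype and time. Per the submitters' processing notes, reads were trimmed, aligned and quantified by the authors with these tools: Trim Galore (0.5.0), the aligner STAR (2.7.2b) and RSEM (1.3.2), on build TAIR10. The strand setting and annotation are not given in the sources used here. The deposited values are TPM, in 1 table per genotype, whose columns sum to 1000000 but for rounding, so depth and counting precision are unknown. Another 8 columns, numbered as replicate 2 in the WT table, matched no sample label and were not used. Names, gene starts and promoter sequence came from RefSeq TAIR10.1, in which 37390 of 37686 loci were found.

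Fits used limma 3.58.1 (R 4.3.3) with a trend on log2(TPM + 1), genes that reached 1 TPM in 2 or more fitted libraries, and Benjamini-Hochberg adjustment over all genes. The coi1 times were compared in 1 fit of 16 libraries with 8 residual degrees of freedom. Genotype was fitted with time as a factor, and per time over 16 groups. Added after seeing the data were the fits per time, of 8 and 12 h alone, and without the libraries that stood apart. The scripts were checked on simulated data. Replicate numbers did not pair the coi1 libraries consistently over the times. Of 28 pairs of times 7 had correlated deviations above 0.1 (median r = 0.0005, range -0.313 to 0.497, highest for 1 h with 2 h).

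The genes, lists and tests were chosen with earlier results of these data known. Beyond the 7 genes, up to 4 genes of each list were named, those with the highest absolute change at 12 h in coi1 among genes called and with a group mean of at least 5 TPM, and DFR. HYH, RUP2, BBX22, EGL3, 5MAT, UGT78D3, FLS3 and KMD3 were added after their values were seen. P-values measure the spread between libraries, which may be technical. Alternatives were a pseudocount of 0.1, no filter or a filter of 5 TPM, rescaling, no trend, a replicate block, fewer libraries and each library left out.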

Additional observations from a re-analysis of the deposited data

Results flagged for a closer look

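The change of F3'H from t0 differed between the genotypes at 2 times, by a test of the difference itself: by -3.98 (log2(TPM + 1), coi1 minus WT, adjusted p = 0.00946) at 8 h and by -4.44 (adjusted p = 0.00519) at 12 h. It was lower in both coi1 libraries than in the 1 WT library at each of these times. Over 11 alternatives the difference lay between -4.44 and -3.85 at 8 h and between -4.62 and -4.27 at 12 h, with the highest adjusted p at 0.0715 and 0.0716.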

How the results depend on the processing

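Of 2139 values of the 7 genes under an alternative, 48 lost a call, 33 gained one, and no called value changed sign; of the other 2058, which kept their side of the threshold, 72 changed sign while not called. Leaving out 1 library at a time, the genes called higher in coi1 were 0 to 5 at 30 min, 1 to 3 at 1 h, 3 to 4 at 2 h, 2 to 4 at 4 h, 5 to 5 at 8 h, 5 to 6 at 12 h, 1 to 2 from 4 to 8 h and 0 to 0 from 8 to 12 h; between the genotypes 0 to 2 were lower over all times, 0 to 1 at 4 to 12 h and 0 to 1 at t0 to 2 h, 0 to 4 were higher at 30 min, and the WT time course had 0 to 5. From 8 to 12 h 0 were called with a filter of 5 TPM, with the 4 libraries alone and with a pseudocount of 0.1, which also left 0 lower for the change at 8 and 12 h between the genotypes. Without the WT library labelled 2 h and the coi1 30 min pair 1 gene was lower at 10 min (MYB111), 1 over all times between the genotypes, 1 higher and 1 lower at 1 h, and 1 lower at 4 h. From 4 to 8 h 1 gene (F3'H) was lower with the 4 libraries alone. Between the genotypes 1 was lower with 8 and 12 h alone, times chosen after the values were seen. The DFR to FLS1 ratio was -2.46 with coi1 replicate 1 alone and -4.38 over 4 to 12 h, where 0.25 is the smallest p. With replicate number as a block, MYB111 at 4 h lost its call (1.28, adjusted p = 0.0517) and genes called between the genotypes over all times numbered 927 in place of 2476. Replicate numbers do not pair the libraries consistently over the times. Over all genes, calls at 12 h in coi1 numbered 4185, and 1931 to 6664 under the alternatives; at 30 min 1784, and 0 to 7894; and between the genotypes at 12 h 93, and 60 to 246. The cause was not tested. F3'H and MYB12 have no value at 12 h in coi1 with a filter of 5 TPM.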
